A study of Mus musculus with 27 samples.

Results

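Zeb1 and Zeb2 are zinc finger and homeodomain proteins that bind short DNA words called E-boxes and mainly repress transcription. They are best known for holding epithelial genes, such as those of cell junctions, silent in mesenchymal cells, and in the developing kidney a mesenchyme that lacks these junctions gives rise to epithelial tubules. The data described here compare the poly(A) transcriptome of ZebDKO cells, in which both Zeb genes were targeted, with that of the control cells. Genes entered when at least 3 of the 6 libraries held them at 1 TPM (a transcript level relative to gene length and to the library as a whole) or more, which left 12974 of the 24953 genes in the table.

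Both groups were mK4 cells, a mouse line derived from kidney metanephric mesenchyme. The control group was wild-type mK4 and the other group mK4 with Zeb1 and Zeb2 DKO, with 3 libraries each, grown in medium with serum and with no agent added, and collected near confluence. ZebDKO cells came from the same line by CRISPR-Cas9 with guides around Zeb1 exon 2 and Zeb2 exon 1, selection with puromycin and picking of clones, which were screened by PCR of the targeted exons and for Zeb1 protein. How many clones were sequenced was not stated, so that properties of a clone and effects of the genotype cannot be told apart. In the labels an RNA kit is named for the ZebDKO libraries alone, whereas the methods of the study give the same kit for all lines. Whether the libraries of both genotypes were prepared together was not stated. In each group the replicates were parallel cultures, and p-values therefore measure the spread between cultures. Whether the ZebDKO cultures were all of the same clone was not stated.

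The 6 libraries held 12541 to 12574 genes at 1 TPM or more in control and 12622 to 12697 in ZebDKO cells, and the 100 most abundant genes took 18.6% to 19% of the total in control and 19.3% to 19.7% in ZebDKO cells. Pearson's r of log2(TPM+1) across the genes tested was 0.994 to 0.996 within a group and 0.916 to 0.920 between groups. Genes are not independent replicates, so r is a description. The label of metanephric mesenchyme was met in part: Pax2 (210 to 316 TPM over the 6 libraries), Hoxa11, Sall1, Eya1 and Osr1 were present, whereas Six2 and Wt1 stayed at or under 0.3 TPM in every library and Hoxd11 was listed at 0 in all 6. The blood cell marker Ptprc was listed at 0 in all 6 libraries and the endothelial marker Pecam1 lay at or under 0.2 TPM. Other members of these marker lists were present. Of 12 blood cell markers 3 passed the filter, and the list summed to 9.0 to 10.8 TPM in control and 28.1 to 30.9 TPM in ZebDKO libraries. Of 11 endothelial markers 4 passed, with sums of 13.5 to 17.1 TPM and 7.4 to 10.0 TPM.

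The guides show which part of Zeb2 the cells were designed to lose. Both match the mouse genome (build mm9) at a single place each, on chromosome 2, where Zeb2 lies on the minus strand. They flank an exon of 142 bases, chr2:44965536-44965677, that holds the start codon at 44965606 to 44965608 and 73 coding bases. Both sites are intronic. In the guides, written 5′ to 3′, the capitals mark the PAM that follows the 20 bases of the guide.
Zeb2 guide 1, plus strand, chr2:44965374-44965393: ccggtccagcggccgcgcgtGGG
Zeb2 guide 2, minus strand, chr2:44965721-44965740: cggcccgcgcgcgtttcaatGGG
Cuts 3 bases from each PAM would remove 333 bases, chr2:44965391-44965723, with the whole start codon exon. The sequence was not read in these cells here.

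Zeb2 mRNA fell in ZebDKO cells, and Zeb1 mRNA was not called in either direction. The control libraries held Zeb2 at 5.5, 4.9 and 5.2 TPM and the ZebDKO libraries at 1.7, 1.8 and 1.6 TPM, with no overlap. The log2 fold change (log2FC, ZebDKO over control, of TPM+1) was -1.20 ± 0.07 (SE, n = 3 per group; limma, Benjamini-Hochberg adjusted p = 5.20e-06). Zeb1 was at 15.1, 14.2 and 15.6 TPM in control and 16.8, 16.6 and 14.8 TPM in ZebDKO libraries, which overlap (log2FC 0.10 ± 0.06, adjusted p = 0.205). Reads anywhere in a gene enter its TPM, transcripts without the targeted exon included, and neither value checks the deletion or the protein. For comparison, in the Runx1KO libraries of the same table Zeb1 was at 0.1 to 0.2 TPM and Zeb2 at 0.2 TPM.

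Runx factors, the activators at the centre of the study, were lower but did not reach 2-fold. Runx1 was at 18.7, 15.6 and 17.9 TPM in control and 9.4, 10.5 and 10.4 TPM in ZebDKO libraries (log2FC -0.73 ± 0.08, adjusted p = 8.33e-05). Runx2 had 6.0, 4.9 and 5.5 TPM against 3.1, 3.5 and 3.3 TPM (log2FC -0.59 ± 0.08, adjusted p = 4.05e-04). Their partner Cbfb had log2FC -0.42 ± 0.05 (adjusted p = 1.20e-04). All 3 ZebDKO libraries lay below all 3 control libraries for each of these 3 genes, and for 53.3% of all genes tested. The median log2FC of all genes tested was -0.18. None of the 3 was called, since a call needed an absolute log2FC over 1 as well as an adjusted p under 0.05. Runx3 stayed at or under 0.3 TPM.

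**Figure D1:**
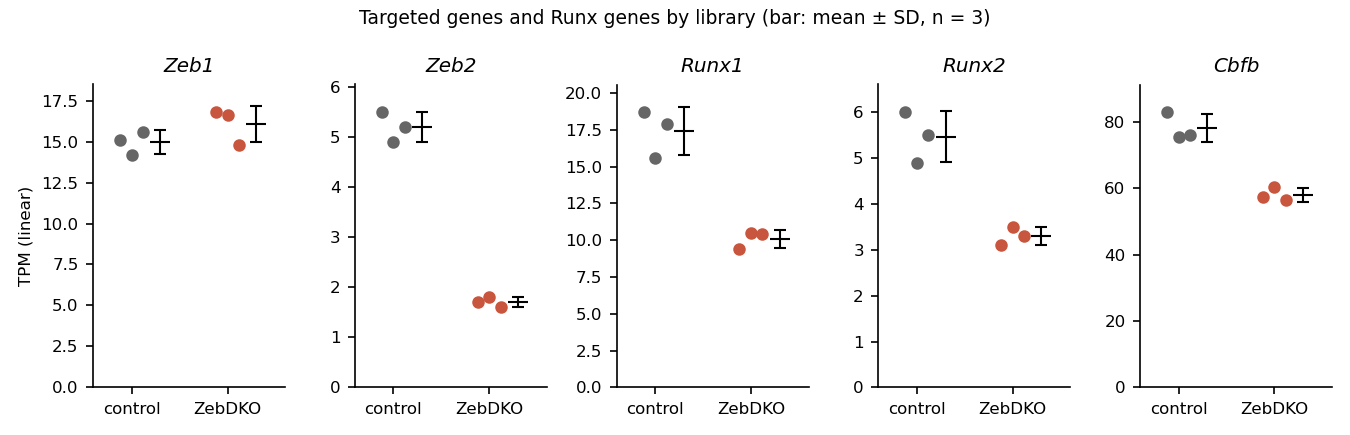
Levels (TPM, linear axis from 0) of Zeb1, Zeb2, Runx1, Runx2 and Cbfb in the 3 control libraries (grey) and 3 ZebDKO libraries (red), with the mean ± SD beside the points. Zeb1 overlaps between the groups, Zeb2 falls from 4.9 to 5.5 TPM to 1.6 to 1.8 TPM, and the Runx genes lie lower in ZebDKO cells.

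Across the 12974 genes tested, 973 were called higher in ZebDKO cells (7.5%) and 944 lower (7.28%), 14.8% in either direction. The rises were the larger ones: 330 of the genes called higher and 111 of those called lower passed 4-fold. The median log2FC of all genes tested was -0.18, so a gene at 0 lay above the middle of the genes. When the libraries were rescaled by median ratios, which moves that middle to 0.00, 1184 genes were higher and 661 lower, and the share of rises among the calls went from 50.8% to 64.2%. The groups did not overlap for 1905 of the 1917 genes called, but neither did they for 81% of all genes tested. Many of the genes called higher were low in control cells, with 392 of the 973 under a control mean of 1 TPM and 44 listed at 0 in all 3 control libraries. Some genes passed the filter through one group alone, 432 with every control library under 1 TPM and 289 with every ZebDKO library under it. Such genes had to differ, and 345 of the 432 were called higher and 151 of the 289 lower. Among the other 12253 genes 628 were higher and 793 lower. Counts over the tested members of a list are to be read beside the 7.5% and 7.28% over all genes tested, and hold such genes too. Because 1 TPM is added before the log, log2FC understates the change of such genes.

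**Figure D2:**
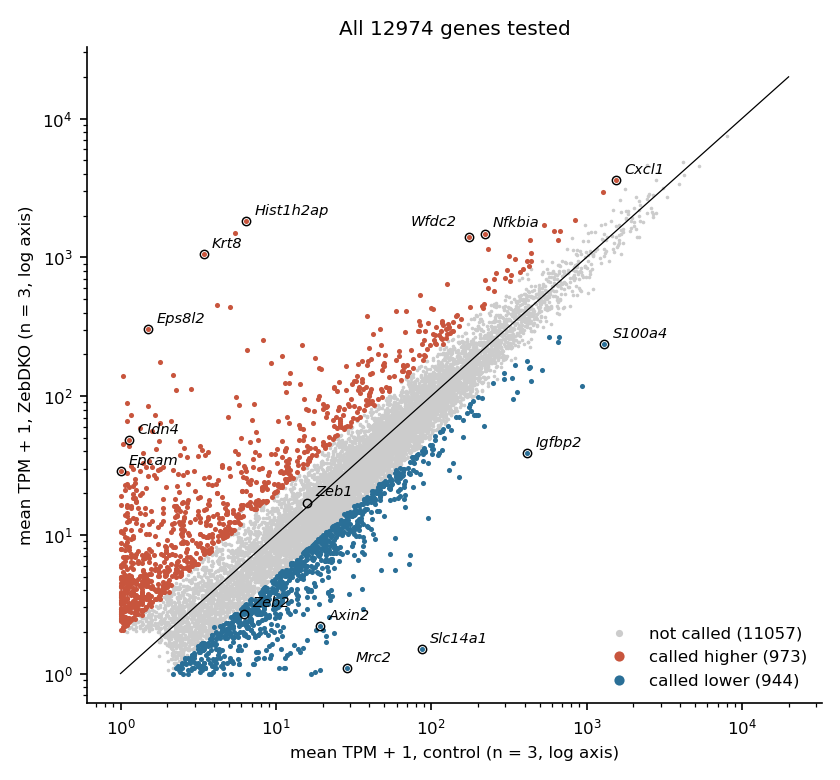
Mean TPM + 1 of each of the 12974 genes tested in control (horizontal) and ZebDKO cells (vertical), both on log axes, with the 973 genes called higher in red, the 944 called lower in blue and the line of equal level. The rises extend farther from the line than the falls, mostly from levels near 0 in control.

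Keratin genes, which build the intermediate filaments of epithelia, rose together. Krt8, the type II keratin of simple epithelia, had the largest log2FC of all genes called. Its level was 1.8, 1.9 and 3.6 TPM in control and 1086.7, 1026.5 and 1037.8 TPM in ZebDKO libraries (log2FC 8.30 ± 0.18, adjusted p = 4.46e-08). Krt18, its type I partner, went from 0.3, 0.1 and 0.0 TPM to 37.4, 44.6 and 46.5 TPM (log2FC 5.28 ± 0.12). The pair therefore rose in all 3 libraries but to different levels, with Krt8 far above Krt18 per unit length. Krt17, a keratin of basal and appendage epithelia, reached 131.7 to 143.8 TPM from at most 0.1 TPM (log2FC 7.07 ± 0.06), and Krt7, a keratin of ducts, 136.4 to 144.0 TPM from 1.1 to 1.2 TPM (log2FC 6.02 ± 0.05). Of 14 keratins listed 8 passed the filter and were called higher, but 5 of the 8 passed through the ZebDKO libraries alone, so that the count of calls follows in part from the filter. With a filter of 5 TPM 5 keratins were higher. Krt80, a keratin well above the filter in control cells, went from 87.6 to 104.2 TPM to 216.7 to 243.9 TPM (log2FC 1.26 ± 0.07). Krt7, Krt8, Krt18 and Krt80 lie on chromosome 15, whose 438 tested genes had a median log2FC of 0.16, and Krt14, Krt17, Krt19 and Krt20 on chromosome 11, with a median of -0.08 over 957; the part of the chromosome in the rises was not tested.

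Adhesion genes of the lateral membrane followed. Epcam, an epithelial adhesion molecule, was listed at 0 in the 3 control libraries and at 28.3, 26.7 and 28.8 TPM in the ZebDKO libraries (adjusted p = 6.40e-09). Cdh16, the kidney-specific cadherin, rose from 16.3 to 17.3 TPM to 187.0 to 191.0 TPM (log2FC 3.41 ± 0.04, adjusted p = 2.51e-09), Cdh6, a cadherin of the early nephron, from 36.8 to 42.9 TPM to 138.7 to 152.2 TPM (log2FC 1.82 ± 0.06), and Cdh3, or P-cadherin, from 43.5 to 45.1 TPM to 91.9 to 98.4 TPM (log2FC 1.07 ± 0.04). Cdh1, the E-cadherin gene and a known target of Zeb repression, did not pass the filter: it was at 0.1 TPM in each control library and at 0.5, 0.6 and 0.4 TPM in the ZebDKO libraries. Cdh2, the mesenchymal N-cadherin, was not called, at 266.5 to 267.8 TPM in control and 179.6 to 190.1 TPM in ZebDKO cells. Of 9 genes tested in this list of cadherins, catenins and Epcam, 5 rose and 0 fell, 2 of the rises in genes that passed through the ZebDKO libraries alone.

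Tight junction genes rose in part. Among the claudins, the strand-forming proteins of the tight junction, Cldn4 went from 0.0, 0.0 and 0.4 TPM to 50.3, 45.9 and 45.7 TPM (log2FC 5.43 ± 0.14, adjusted p = 8.07e-08). Cldn9 and Cldn15 rose to 3.2 to 6.2 TPM from at most 0.8 TPM, and Cldn2, which forms cation pores, fell from 9.0 to 12 TPM to 1.1 to 1.2 TPM (log2FC -2.34 ± 0.11). The claudins tested thus gave 3 rises and 1 fall among 6, and all 3 that rose had passed the filter through the ZebDKO libraries alone. Of the tight junction scaffold and MARVEL proteins 5 of 13 rose and 1 fell. Of these 5 rises 2 were in genes that passed through the ZebDKO libraries alone. Lsr, which marks tricellular contacts, reached 56.5 to 60.1 TPM from 0.2 to 0.5 TPM (log2FC 5.48 ± 0.09). Ocln, the MARVEL protein occludin, was listed at 0 in all control libraries and at 2.6 to 2.8 TPM in ZebDKO cells. Jam3, an adhesion molecule also used by mesenchymal and germ cells, fell from 29.1 to 32.0 TPM to 5.3 to 6.9 TPM (log2FC -2.15 ± 0.09).

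Desmosome and hemidesmosome genes rose in part, and none of those tested was called lower. In the hemidesmosome list 1 gene had a log2FC under 0 (-0.56). In the desmosome list 5 of 7 were higher: the desmosomal membrane protein gene Perp (10.4 to 12 TPM in control, 141.6 to 151.6 TPM in ZebDKO), the plakophilins Pkp3, Pkp1 and Pkp2, and the plakoglobin gene Jup (67.2 to 72.9 and 140.5 to 151.8 TPM). Pkp1 was listed at 0 in all 3 control libraries, and 2 of the 5 genes called had passed the filter through the ZebDKO libraries alone. In the hemidesmosome list 5 of 9 were higher, and 1 of the 5 had passed the filter through the ZebDKO libraries alone. Itgb4, the integrin subunit that anchors keratins to the basement membrane, went from 0.6, 0.5 and 0.5 TPM to 32.4, 35.0 and 32.3 TPM (log2FC 4.48 ± 0.06, adjusted p = 9.92e-09). Lamb3 and Lama3, chains of an epithelial laminin, rose unevenly, Lamb3 from 1.7 to 1.9 TPM to 107.4 to 118.1 TPM and Lama3 from 2.5 to 3.0 TPM to 15.5 to 17.4 TPM. Lama5, a chain of mature basement membranes, had log2FC 1.23 ± 0.06.

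Polarity and apical genes rose in part. Crb3, the epithelial Crumbs protein, went from 0.5, 0.5 and 0.8 TPM to 54.5, 52.6 and 58.3 TPM (log2FC 5.14 ± 0.09, adjusted p = 1.91e-08). Pard6b, a subunit of the Par complex, was well expressed in control cells already, at 25.7, 23.4 and 24.0 TPM, and reached 127.5, 123.7 and 122.0 TPM (log2FC 2.31 ± 0.04, adjusted p = 2.90e-08). Myo5b, a motor of apical recycling, and Patj, a Crumbs scaffold, rose to 3.9 to 4.1 and 15.6 to 16.1 TPM. Of 18 polarity genes tested 6 rose and 2 fell, 3 of the rises in genes that passed through the ZebDKO libraries alone. Both falls were lost under median-ratio scaling and under quantile normalization. Microvillus and apical scaffold genes had 7 rises among 13 tested, 4 of them in genes that passed through the ZebDKO libraries alone. The 1 fall was lost without control replicate 2 and under median-ratio scaling (0 falls in each). Eps8l2, an actin-capping protein of microvilli and stereocilia, went from 0.6, 0.4 and 0.5 TPM to 302.3, 301.0 and 309.7 TPM (log2FC 7.67 ± 0.06, adjusted p = 9.99e-10). Prom1, a membrane protein of protrusions, Eps8l1 and the motor gene Myo1d rose too, with log2FC of 3.0, 1.93 and 1.89.

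Membrane-anchored serine proteases and their inhibitors, which process epithelial surface proteins, had 11 rises and 0 falls among 14 tested. Of these 14, 4 passed through the ZebDKO libraries alone and 7 of the 9 that passed in both groups rose, while a filter of 5 TPM left 6 rises and quantile normalization added 1 fall. Spint2, an inhibitor of matriptase, rose from 16.4 to 19.3 TPM to 153.7 to 161.4 TPM (log2FC 3.06 ± 0.06). St14, the matriptase gene, went from at most 0.1 TPM to 3.6 to 4.2 TPM, and Serpinb5, or maspin, from at most 0.1 TPM to 9.7 to 10.5 TPM. Prss8 varied most between ZebDKO libraries, with 7.9, 3.7 and 4.7 TPM against 1.1 to 1.5 TPM in control (log2FC 1.41 ± 0.22, adjusted p = 6.55e-04). Other large rises among epithelial genes were the secreted protein gene Wfdc2 (174.2 to 176.0 and 1373.8 to 1453.6 TPM), the adaptor gene Grb7 (0.8 and 168.6 to 181.8 TPM) and Mal, which encodes an apical sorting protein (0.1 and 63.2 to 67.1 TPM).

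Markers of other kidney and stromal cells were read beside these rises. Of 6 ureteric bud and collecting duct markers tested 3 were called higher and 1 lower, and the list of 13 summed to 149.7 to 164.2 TPM in control and 1332.3 to 1391.1 TPM in ZebDKO libraries. The 3 rises were Krt8, Krt18 and Wnt7b, and Krt8 alone gained 1048 TPM of that sum, while Ret, Calb1, Aqp2 and Gata3 did not pass the filter. The 1 lower call, Tfcp2l1, was lost (0 called) without control replicate 1, control replicate 3 or ZebDKO replicate 1 and under both other scalings. Tubule and podocyte markers had 2 rises and 0 falls among 6 tested, and endothelial markers 0 and 2 among 4. Blood cell markers had 1 and 1 among 3, and skeletal muscle and neuron markers 1 and 0 among 3. The 2 tubule and podocyte rises and the muscle and neuron rise were in genes that passed through the ZebDKO libraries alone. Of the 2 endothelial falls 1 was in a gene that passed through the control libraries alone. These counts therefore follow in part from the filter. The part of other cells in the rises was not tested, and in bulk libraries more cells of a type and more RNA per cell cannot be told apart.

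**Figure D3:**
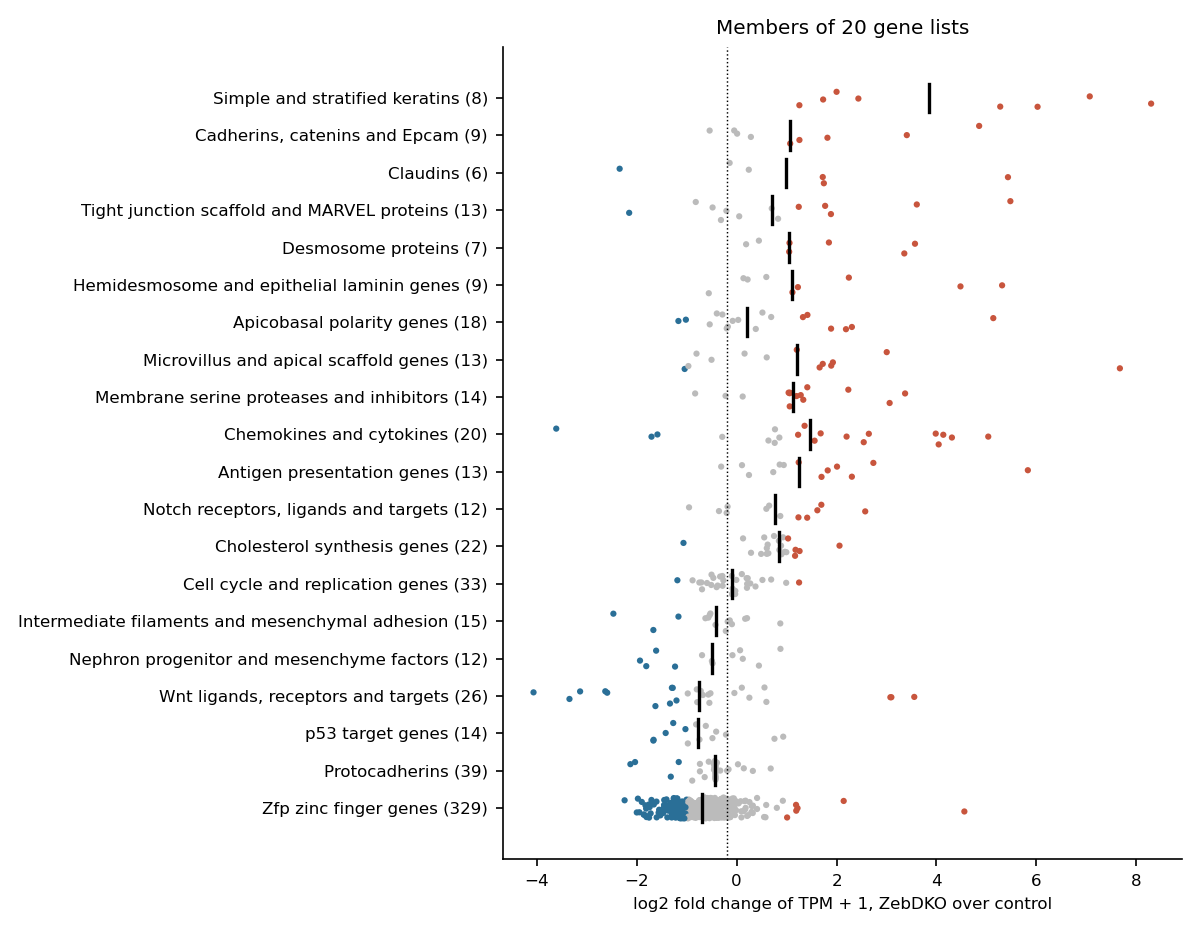
Log2 fold change (TPM + 1, ZebDKO over control) of each tested member of 20 gene lists, with the number tested in brackets, rises called in red, falls called in blue, other genes in grey and the median of each list as a black bar. The dotted line marks the median of all genes tested, -0.18; the 8 keratins all lie above 1, whereas the Zfp genes lie mostly below the dotted line.

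Epithelial transcription factors moved in both directions. Grhl2, an activator of epithelial junction genes, did not pass the filter: it was at 0.1 TPM in each control library and at 1.1, 1.4 and 0.9 TPM in the ZebDKO libraries. By limma, neither Grhl1 nor Grhl3 was called, and Grhl1 was at 8.9 TPM in each control library and 3.7 to 4.8 TPM in the ZebDKO libraries. Ovol2 was listed at 0 in all 6 libraries, and the epithelial splicing regulators Esrp1 and Esrp2 stayed at or under 0.3 TPM. Elf3, an epithelial Ets factor, rose from 30 to 35.3 TPM to 121.5 to 133.8 TPM (log2FC 1.97 ± 0.07). Foxa1 and Foxa3, pioneer factors of endodermal epithelia, rose to 39.8 to 43.8 TPM and 4.4 to 5.5 TPM, with log2FC of 1.87 and 2.47. They belong to a list of other epithelial factors with 2 rises and 3 falls among 8 tested. Of these, 1 rise was in a gene that passed through the ZebDKO libraries alone, and 2 falls through the control libraries alone. The falls were Pou3f3, a factor of the distal nephron, Gata2 and Tfcp2l1, a collecting duct factor, with log2FC of -1.70, -1.53 and -1.02. Of 12 Kruppel-like factors tested 2 rose (16.7%, beside 7.5% of all genes tested), Klf10 and Klf6. Klf2 was at 70.3 to 79.3 TPM in control and 101.7 to 111.2 TPM in ZebDKO cells and was not called (log2FC 0.48 ± 0.055).

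E-boxes of the Zeb type were more frequent at the starts of genes called higher than at those of all genes tested. The word searched was CAGGTG, with its reverse complement CACCTG, in the 300 bases from 250 before to 50 after the 5′ end of each gene model (GENCODE vM1, mm9). It was present at 28.4% of 832 starts of genes called higher (95% Wilson interval 25.4% to 31.5%), at 13.2% of 797 called lower (11% to 15.7%) and at 17.6% of all 11081 tested genes with a start. Among genes called higher with a control mean of 1 TPM or more the share was 24.9% of 497, and among those past 4-fold 30.5% of 279. CAGGTA (reverse complement TACCTG) was found at 12.9%, 6.27% and 8.36% of the same 3 sets, with an interval of 10.8% to 15.3% for genes called higher. The median GC content was 58.3%, 59.3% and 60.0% in them. These are shares of letters in a window, not of bound sites, and intervals cover counting error only.

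Of the 38 genes called higher in the junction, polarity and apical lists, 37 had a start in the annotation and 18 of these (48.6%) held CAGGTG in either direction. For 5 of the 18, Lama5 and the 4 printed here, the window in mm9 is letter for letter the promoter of the RefSeq table. The 4 were taken as genes of junctions and polarity: a claudin, the Epcam gene, the Par subunit and occludin. Each is 300 bases, 5′ to 3′ on the strand of the gene, with the matches in capitals.
Cldn4, minus strand, chr5:135422755-135423054: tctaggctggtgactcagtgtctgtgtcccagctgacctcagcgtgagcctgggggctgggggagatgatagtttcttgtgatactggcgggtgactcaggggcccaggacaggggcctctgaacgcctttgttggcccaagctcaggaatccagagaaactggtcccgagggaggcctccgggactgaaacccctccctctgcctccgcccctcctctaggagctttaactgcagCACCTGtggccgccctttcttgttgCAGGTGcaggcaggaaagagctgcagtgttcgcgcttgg
Epcam, plus strand, chr17:88035069-88035368: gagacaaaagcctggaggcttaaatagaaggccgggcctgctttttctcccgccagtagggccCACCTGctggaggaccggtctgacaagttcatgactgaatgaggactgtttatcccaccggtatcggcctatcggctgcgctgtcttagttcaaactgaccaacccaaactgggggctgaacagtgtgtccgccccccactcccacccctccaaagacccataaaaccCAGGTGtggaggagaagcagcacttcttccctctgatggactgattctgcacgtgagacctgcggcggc
Pard6b, plus strand, chr2:167906254-167906553: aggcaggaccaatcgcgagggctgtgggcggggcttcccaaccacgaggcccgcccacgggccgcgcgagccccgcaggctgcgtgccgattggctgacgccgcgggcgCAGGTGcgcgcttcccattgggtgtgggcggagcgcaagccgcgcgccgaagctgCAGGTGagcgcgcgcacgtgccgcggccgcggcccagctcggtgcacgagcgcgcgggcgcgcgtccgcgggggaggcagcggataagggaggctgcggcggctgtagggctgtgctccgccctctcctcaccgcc
Ocln, minus strand, chr13:101322624-101322923: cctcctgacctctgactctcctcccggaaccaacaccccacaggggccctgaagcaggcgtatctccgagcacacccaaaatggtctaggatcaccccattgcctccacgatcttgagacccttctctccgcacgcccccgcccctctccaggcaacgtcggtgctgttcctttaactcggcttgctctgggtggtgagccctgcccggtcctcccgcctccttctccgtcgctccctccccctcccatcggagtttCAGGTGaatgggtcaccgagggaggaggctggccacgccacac
Cldn4, Epcam and Pard6b each carry 2 matches, and Ocln carries 1, within the bases after its start. Epcam and Ocln were listed at 0 in control cells and Cldn4 was close to it, whereas Pard6b was at 24.4 ± 1.2 TPM (SD, n = 3).

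Chromatin at these starts was measured in control and Runx1KO cells, not in ZebDKO cells. A peak of ATAC-seq, an assay of DNA open to a transposase, was counted when it lay within 500 bases of the 5′ end. Of 833 starts of genes called higher 41.1% had a peak that was open in control cells (37.8% to 44.4%), compared with 73.1% of 798 called lower and 79.3% of all 11084 with a position. A peak that the deposited lists class as gained in Runx1KO cells stood at 22.2% of the starts of genes called higher (19.5% to 25.2%), at 1.75% of those called lower and at 3.17% of all. A peak classed as lost in Runx1KO cells stood at 10.2% of the starts of genes called lower (8.24% to 12.4%), at 2.40% of those called higher and at 2.03% of all. Cldn4, Krt8, Eps8l2, Itgb4, Lamb3, Ocln, Perp and Prss8 were among the genes called higher with a gained peak. Genes called higher were often near 0 in control cells, and the part of that level in these shares was not tested.

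**Figure D4:**
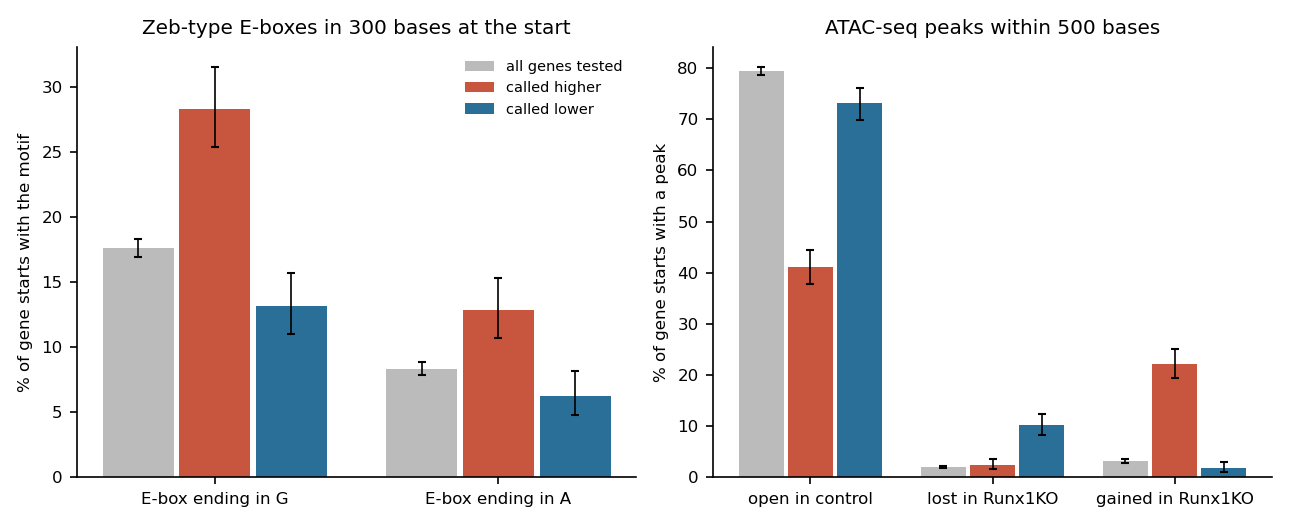
Left, share of gene starts (in %) with CAGGTG or with CAGGTA on either strand in the 300 bases around the start; right, share with an ATAC-seq peak within 500 bases that is open in control cells, lost in Runx1KO cells or gained in Runx1KO cells. Bars show all genes tested (grey), called higher (red) and called lower (blue), from 0, with 95% Wilson intervals; the gained peaks stand at 22.2% of the starts called higher.

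Falling genes formed a smaller set of large changes. Slc14a1, a urea transporter, had the steepest fall of the genes called, from 86.8, 82.8 and 88.4 TPM to 0.4, 0.5 and 0.6 TPM (log2FC -5.86 ± 0.065, adjusted p = 3.11e-09). Mrc2, an endocytic collagen receptor of mesenchymal cells, went from 27.3, 26.9 and 28.7 TPM to at most 0.2 TPM (log2FC -4.71 ± 0.08). Both genes were thus nearly absent in every ZebDKO library. Ntrk3, a neurotrophin receptor, fell likewise from 16.9 to 19.3 TPM to at most 0.1 TPM, and Nkx2-5, a homeobox factor, from 53.9 to 60.3 TPM to 4.0 to 5.1 TPM. In absolute level the largest fall was that of S100a4, a calcium-binding protein of fibroblasts and motile cells, with 1274.2, 1364.3 and 1275.3 TPM in control and 247.8, 226.0 and 231.3 TPM in ZebDKO libraries (log2FC -2.47 ± 0.04, adjusted p = 2.25e-08).

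**Figure D5:**
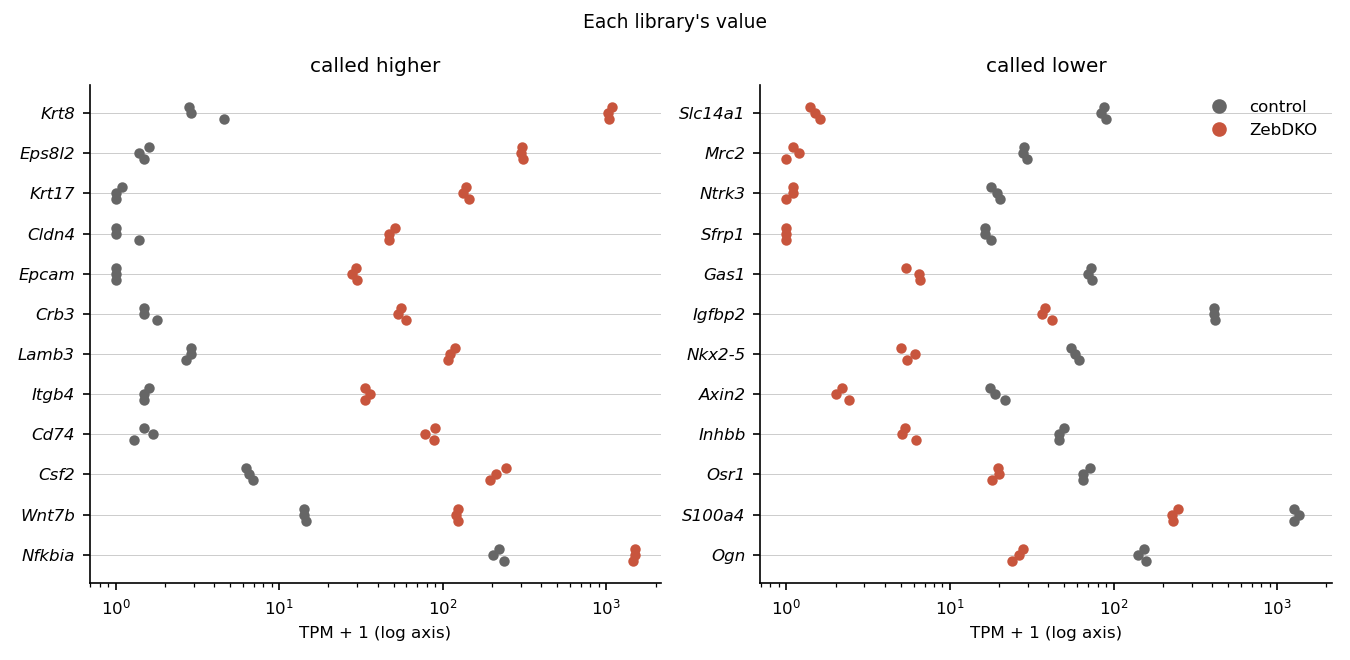
TPM + 1 (log axis) of 12 genes called higher (left) and 12 called lower (right) in each of the 3 control libraries (grey) and 3 ZebDKO libraries (red). Libraries of a group lie close together for each gene shown and the groups do not overlap; Epcam stands at 0 TPM in control and Sfrp1 at 0 TPM in ZebDKO cells.

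Most mesenchymal structural genes stayed within 2-fold. Of 15 genes tested in the list of mesenchymal filaments and adhesion 0 rose and 3 fell: S100a4, the proteoglycan gene Dcn (6.6 to 8.9 TPM in control, 1.3 to 2.1 TPM in ZebDKO) and Postn, a matricellular protein (2.2 to 2.5 and 0.5 TPM). Vim, the filament of mesenchymal cells, was at 2772.9, 2887.0 and 2748.8 TPM in control and still at 2078.1, 2075.9 and 2114.3 TPM in ZebDKO libraries (log2FC -0.42 ± 0.03, not called). Among Snail, Twist and Prrx type factors 1 of 10 rose, Snai3 (0.8 to 2.3 and 11.3 to 12.1 TPM), and 3 fell. Foxc1 went from 73.6 to 86.5 TPM to 27.2 to 27.7 TPM (log2FC -1.49 ± 0.06). Prrx2 and Tbx18 had log2FC of -1.09 and -1.07 and lost the call under median-ratio scaling (-0.89 and -0.87).

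Matrix genes moved in both directions. Of 19 collagens tested 4 rose (21.1%) and 3 fell (15.8%), beside 7.5% and 7.28% of all genes tested. Of the 3 falls 1 was in a gene that passed the filter through the control libraries alone. Col4a3 and Col4a4, neighbours that encode chains of the mature glomerular basement membrane, rose together, Col4a3 from 1.4, 1.0 and 1.1 TPM to 27.7, 30.5 and 26.5 TPM (log2FC 3.76 ± 0.09) and Col4a4 from 1.6 to 1.9 TPM to 16.1 to 17.7 TPM. Col6a2, a chain of the microfibrillar collagen VI, fell from 108.6 to 113.7 TPM to 36.3 to 39.0 TPM (log2FC -1.55 ± 0.04). Ogn, a small proteoglycan, fell from 140.0 to 156.8 TPM to 23 to 27 TPM (log2FC -2.53 ± 0.07), and Loxl1, an elastin cross-linking enzyme, from 64.9 to 67.5 TPM to 19.6 to 23.7 TPM. Integrin subunits had 6 rises and 2 falls among 15 tested, 3 of the rises in genes that passed through the ZebDKO libraries alone. The falls were Itgb7 (8.9 to 9.6 TPM to 1.1 to 1.3 TPM) and Itga9 (15.4 to 17.7 TPM to 3.3 to 3.6 TPM), and the epithelial subunit Itgb6 rose to 2.7 to 3.6 TPM from at most 0.2 TPM. Acta1, the skeletal actin gene, reached 36.7 to 42.8 TPM from 0.4 to 0.9 TPM, and Acta2, the smooth muscle actin of myofibroblasts, rose as well, from 6.6 to 7.4 TPM to 20 to 21.7 TPM (log2FC 1.43 ± 0.06).

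Kidney mesenchyme factors fell in part. Osr1, an early regulator of kidney mesenchyme, went from 70.9, 64.1 and 64.3 TPM to 18.7, 18.9 and 17.1 TPM (log2FC -1.81 ± 0.06, adjusted p = 2.41e-07). Eya4 and Osr2 fell too (log2FC -1.93 and -1.23), and of 12 genes tested in the list 4 fell and 0 rose. Of these 4 genes 1 had passed the filter through the control libraries alone. Pax2 had log2FC -0.50 ± 0.04 and Hoxa11 0.45 ± 0.03, and neither was called. Gdnf, the ligand from the mesenchyme that attracts the ureteric bud, rose from 11.4 to 13.6 TPM to 38.6 to 41.4 TPM (log2FC 1.58 ± 0.07), and Spry4, an inhibitor of receptor tyrosine kinase signals, from 3.1 to 3.2 TPM to 18.1 to 20.2 TPM. The T-box factors Tbx15 and Tbx18 were called lower, and both calls were lost under median-ratio scaling.

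Among Wnt genes, the secreted inhibitors, a target and several ligands fell. Of 26 tested 10 fell and 3 rose, with a median log2FC of -0.75. Of the 10 falls 3 were in genes that passed the filter through the control libraries alone. Sfrp1, a secreted Wnt antagonist, was at 15.3, 15.3 and 16.7 TPM in control and listed at 0 in all ZebDKO libraries (adjusted p = 1.94e-08). Sfrp2, its relative, went from 8.5 to 11.2 TPM to 0.1 TPM. Axin2, a feedback target of beta-catenin, went from 16.5, 17.9 and 20.6 TPM to 1.2, 1.0 and 1.4 TPM (log2FC -3.13 ± 0.10, adjusted p = 2.64e-07). Wnt4, the ligand that drives mesenchyme to form renal vesicles, had log2FC -2.63, the R-spondin gene Rspo3 -2.59 and the receptor gene Fzd7 -1.28. Apcdd1, a membrane inhibitor of Wnt, was outside this list and among the 15 largest falls, with 69.1 to 79.2 TPM against 5.5 to 7.3 TPM. The rises were Lgr6, an R-spondin receptor (1.9 to 2.5 to 34.7 to 37.6 TPM), and the ligands Wnt7a and Wnt7b. Wnt7b, a ligand of the ureteric epithelium, went from 13.2, 13.2 and 13.6 TPM to 123.5, 119.0 and 122.4 TPM (log2FC 3.10 ± 0.04, adjusted p = 3.73e-09). 

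Notch ligands rose. Dll1, Dll4, Jag2 and Jag1, membrane ligands of Notch, had log2FC of 2.57, 1.70, 1.62 and 1.24 from control levels of at most 4.0 TPM. Hes1, a repressor induced by Notch, went from 313.4, 278.8 and 324.0 TPM to 750.0, 797.8 and 896.8 TPM (log2FC 1.41 ± 0.08, adjusted p = 3.03e-06). These were the 5 rises among 12 Notch genes tested, and 2 of them were in genes that passed through the ZebDKO libraries alone. No Notch gene was called lower by limma, but 1 was without ZebDKO replicate 2 and under quantile normalization, and a filter of 5 TPM left 3 rises.

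Some genes of TGF-beta and BMP signalling, of growth factors and of Eph receptors moved, in both directions, but most were not called. Of 23 TGF-beta and activin genes tested 2 rose and 3 fell, and of 15 BMP and Id genes 2 rose and 3 fell. Of 16 FGF, PDGF and Igf genes tested 3 rose and 4 fell, and of 14 Eph receptors and ephrins 3 rose and 2 fell. Over all genes tested 7.5% rose and 7.28% fell. Inhbb, an activin subunit, fell from 48.9, 45.6 and 45.4 TPM to 4.3, 4.1 and 5.2 TPM (log2FC -3.11 ± 0.08, adjusted p = 9.43e-08). Tgfbr3, a co-receptor, and Fst, an activin antagonist, fell with it (log2FC -2.63 and -1.47), while Smad7 and Skil, intracellular inhibitors induced by TGF-beta, rose (log2FC 1.82 and 1.04). The call of Skil was lost without control replicate 2 (log2FC 0.997) and without ZebDKO replicate 2 (log2FC 0.97). Bmp5 rose from 1.1 to 1.8 TPM to 35.5 to 38.3 TPM and Bmp7 from 5.8 to 6.9 TPM to 15.2 to 18.5 TPM, while Id2, an Id protein induced by BMP, fell from 320.0 to 347.5 TPM to 88.3 to 97.4 TPM, and the BMP antagonists Nog and Bambi fell (log2FC -1.56 and -1.32). Igfbp2, an insulin-like growth factor binding protein, fell from 413.0, 409.7 and 414.6 TPM to 37.1, 35.5 and 40.8 TPM (log2FC -3.42 ± 0.05, adjusted p = 1.16e-08). Pdgfb, by contrast, rose from 66.7 to 69.7 TPM to 395.9 to 432.3 TPM and Fgf1 from 5.7 to 7.6 TPM to 53.6 to 54.4 TPM. Epha2, an Eph receptor of epithelia, rose from 250.2 to 254.3 TPM to 691.7 to 701.5 TPM, Epha1 reached 23.1 to 28.9 TPM from 1.3 to 1.4 TPM, and the ligand Efnb2 fell from 106.4 to 113.5 TPM to 32.8 to 39.5 TPM.

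Inflammatory genes rose to high levels. Cxcl1, a neutrophil chemokine, showed the largest gain in mean TPM, from 1562.2, 1388.6 and 1673.0 TPM to 3728.9, 3692.0 and 3404.7 TPM (log2FC 1.23 ± 0.07, adjusted p = 3.31e-06). Csf2, the granulocyte-macrophage factor, went from 5.3, 5.5 and 5.9 TPM to 242.1, 211.7 and 192.1 TPM (log2FC 5.04 ± 0.08, adjusted p = 1.78e-08). Csf3, Tnf and Cxcl16 rose to 45.2 to 48.9, 22.5 to 28.8 and 18.9 to 21.3 TPM from at most 2.0 TPM. Cxcl5 was an exception and fell from 16.9 to 23.7 TPM to 0.7 TPM. Of 20 chemokines and cytokines tested 12 rose and 3 fell. Among the 14 that passed the filter in both groups 9 rose and 1 fell.

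Feedback inhibitors of NF-kappaB, which the pathway itself induces, were among the rises, in a list put together after the values were seen. Nfkbia, the inhibitor IkappaB-alpha, went from 221.2, 203.2 and 234.9 TPM to 1500.6, 1485.4 and 1451.5 TPM (log2FC 2.75 ± 0.05, adjusted p = 2.60e-08), Tnfaip3, or A20, rose from 54.4 to 63.4 TPM to 379.0 to 428.6 TPM, and Icam1, an adhesion molecule for leukocytes, from 7.1 to 9.9 TPM to 157.2 to 192.1 TPM. Of 21 genes of this list 13 were higher and 0 lower. Among 13 members of the AP-1 family 7 rose and 0 fell, among them Maff, Batf and Mafk (log2FC 1.97, 1.82 and 1.38). Of these 7 rises 1 was in a gene that passed the filter through the ZebDKO libraries alone. Junb and Fos, the most abundant members not called, did not reach the limits of a call. Immediate early and stress-induced genes, also listed after the values were seen, had 8 rises among 18, with Egr1 at 757.9 to 932.3 TPM in control and 1829.7 to 1886.7 TPM in ZebDKO cells and Myc at 38.6 to 40.6 and 179.7 to 188.3 TPM. Of these 8 rises 1 was in a gene that passed through the ZebDKO libraries alone.

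Antigen presentation genes had 7 rises and 0 falls among 13 tested, 3 of the rises in genes that passed through the ZebDKO libraries alone. Cd74, the invariant chain of class II, went from 0.5, 0.7 and 0.3 TPM to 88.5, 76.4 and 86.9 TPM (log2FC 5.83 ± 0.11, adjusted p = 2.53e-08). H2-K1, a classical class I heavy chain, rose from 37.2 to 43.3 TPM to 273.3 to 283.4 TPM. Nlrc5, the activator of class I genes, and Psmb8, an immunoproteasome subunit, rose from at most 0.4 TPM to 5.1 to 6.1 TPM and 2.2 to 3.3 TPM. Class I genes share long stretches of sequence, and reads of H2-K1 and H2-Q4 may have been divided between copies. Of 19 interferon-stimulated genes tested 5 rose and 1 fell, led by Oas1a, Rsad2 and Usp18, each from at most 0.6 TPM to between 7.4 and 11.2 TPM. Of the 5 rises in the list 3 were in genes that passed through the ZebDKO libraries alone. The median log2FC of that list was -0.01, and the 1 fall was lost (0 falls) without control replicate 3 and under median-ratio scaling.

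Metabolic and growth genes gave smaller changes. Cholesterol synthesis genes lay to one side, with a log2FC above 0 for 21 of 22 tested and a median of 0.85, of which 5 were called higher and 1 lower. Fdps and Fdft1, enzymes of the path to squalene, and the regulator Srebf2 rose, with log2FC of 1.26, 1.18 and 1.17. Under median-ratio scaling 12 were higher and 0 lower. In a list of p53 targets, which does not hold Perp, 5 of 14 tested fell: Zmat3, Trp53inp1, Ccng1, Eda2r and Mdm2, with log2FC of -1.67, -1.66, -1.42, -1.27 and -1.03. Under median-ratio scaling the call of Mdm2 was lost (-0.82) and 1 member was called higher. Perp, also a known p53 target, rose (log2FC 3.57). Of 33 cell cycle and replication genes 1 rose, the inhibitor Cdkn2b, and 1 fell, Ccne2, the cyclin of S phase entry. These shares of 3.03% each lay under the 7.5% and 7.28% of all genes tested. Without control replicate 2, ZebDKO replicate 2 or ZebDKO replicate 3 the rises were 2, and under median-ratio scaling 2 rose and 0 fell. No cytoplasmic ribosomal protein gene was called among 78 tested by limma (median log2FC -0.21), and 1 of 79 oxidative phosphorylation genes was.

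Genes named Zfp, most of which encode C2H2 zinc finger proteins, fell as a large family. Of 329 tested 89 were lower and 6 higher, with a median log2FC of -0.69 beside -0.18 over all genes. Their median control level was 14.4 TPM, compared with 26.5 TPM for all genes tested. Among the 2594 tested genes with a control mean of 5.83 to 17.5 TPM 333 were lower and 124 higher, with a median log2FC of -0.31. The part of the control level in the fall of the Zfp genes was not tested. All 3 ZebDKO libraries lay below all 3 control libraries for 274 of the 329 (83.3%), compared with 53.3% of all genes tested. The lower members with a position were spread over 16 chromosomes, with at most 14 on one. Zfp365 fell most, from 42.9, 43.8 and 41.3 TPM to 8.8, 9.0 and 7.0 TPM (log2FC -2.24 ± 0.09, adjusted p = 6.47e-07), and Zfp937 went from 6.0 to 7.7 TPM to 0.8 to 1.2 TPM. Zfp941, at 0.2 to 0.6 TPM in control, was an exception at 30.6 to 32.9 TPM in ZebDKO cells. With median-ratio scaling 65 members were lower and 7 higher. Of 39 protocadherins tested 4 were lower (10.3%, beside 7.28% of all genes tested) and 0 higher, a share near the background. Pcdhb14 went from 12.6 to 13.3 TPM to 2.1 to 2.3 TPM and Pcdhb5 from 14.8 to 15.2 TPM to 2.6 to 3.3 TPM. A pseudocount of 0.1 gave 7 lower, and Pcdhb16 lost its call under both other scalings.

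In these libraries of poly(A) RNA, histone H2A genes of the Hist1 cluster rose far more than the other histones. RNA without a poly(A) tail was selected against, so these values do not give the level of all histone mRNA. Hist1h2ap was at 4.7, 5.5 and 6.1 TPM in control and 1846.2, 1775.6 and 1876.8 TPM in ZebDKO libraries (log2FC 8.16 ± 0.08, adjusted p = 1.75e-09), and at 6.8 to 10.1 TPM in the Runx1KO libraries of the same table. Hist1h2ao and Hist1h2ag had log2FC of 8.12 and 6.47. Of 12 H2A genes tested in the cluster 11 rose, summing to 52.8 to 58.1 TPM in control and 4016.0 to 4261.1 TPM in ZebDKO libraries. Of the H2B genes 9 of 15 rose, with log2FC up to 2.07, and of the H4, H3 and H1 genes 1 of 11, 0 of 9 and 0 of 6. Hist1h4d, the H4 gene called (log2FC 1.0), lost its call without control replicate 1, control replicate 3, ZebDKO replicate 2 or ZebDKO replicate 3. Hist1h1d was the only Hist1 gene of these classes called lower (log2FC -1.16 ± 0.14), and not under median-ratio scaling. These 5 classes were listed after the values were seen. Hist1 genes are near copies of one another, and reads may have been divided between them, so single members are uncertain. Leaving all Hist genes out before rescaling gave 958 genes higher and 930 lower.

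Imprinted genes had 2 rises and 3 falls among 9 tested. Both rises were in genes that passed the filter through the ZebDKO libraries alone, and among the other 7 genes 0 rose and 3 fell. Phlda2, a growth restrainer of the placenta, reached 19.9 to 24.6 TPM from at most 0.4 TPM, and Plagl1, a zinc finger factor, 10.6 to 13 TPM from at most 0.2 TPM. Zim1, Peg10 and Peg3, all expressed from the paternal or maternal copy alone, fell, Zim1 from 20.7 to 24.5 TPM to 0.7 to 1.3 TPM and Peg3 from 384.9 to 444.5 TPM to 166.3 to 192.7 TPM. Zim1 (chr7:6628154-6649161) and Peg3 (chr7:6656603-6683132) lie close together. Peg3 overlaps the antisense gene Peg3os, and since the counting is not stated to use strand the reads of both cannot be told apart.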

How the data were processed

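Poly(A) RNA of 3 control and 3 ZebDKO cultures was sequenced. After trimming with Trim Galore and STAR alignment (mm9), the authors dropped duplicate reads, counted RefSeq genes with featureCounts 1.6.2 and deposited TPM with 1 decimal, without counts, so depth is unknown; strand and gene lengths were not given in the sources used here. The authors also deposited ATAC-seq peak positions, used here as intervals. Their own comparison (DESeq2 1.26.0) was not used.

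Genes at 1 TPM or more in at least 3 libraries were tested with limma 3.58.1 (R 4.3.3, empirical Bayes with trend) on log2(TPM+1), with Benjamini-Hochberg adjustment over all genes tested. Genes were called at an adjusted p under 0.05 where the change exceeded 1 on the log2 scale. The fit was tested on simulated data. Members and lists were chosen with earlier results of these data known. Genes were named if they were Zeb or Runx genes, among the 15 largest rises or falls, the 10 largest TPM differences per direction, the leading or most abundant members of a list, or measured by RT-qPCR in the study. Sall1, Eya1, Wnt4, Wnt7a, Rspo3 and Fzd7 were added after their values were seen. 0 value columns could not be mapped. Alternatives changed the pseudocount, filter, scaling, threshold, block, libraries and prior. Gene starts came from GENCODE vM1. Shares of starts carry 95% Wilson intervals (scipy 1.17.1). A few genes are not reported here.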

Additional observations from a re-analysis of the deposited data

How the results depend on the processing

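The counts of 973 genes higher and 944 lower moved by over 1.5 times only with the fold threshold, to 2244 and 4502 at 1.3-fold and to 330 and 111 at 4-fold, where Zeb2 (log2FC -1.20) was no longer called. Leaving out each library in turn gave 961 to 981 higher and 930 to 993 lower, Zeb1 log2FC of 0.06 to 0.15 and Zeb2 log2FC of -1.23 to -1.16. Median-ratio scaling gave 1184 and 661, quantile normalization 1035 and 775, a pseudocount of 0.1 1143 and 1332, and a filter of 5 TPM, which Zeb2 does not pass in enough libraries, 665 and 727. With the replicate number as a replicate block 978 and 945 genes were called, 973 and 943 of them shared with the fit without it. The replicate numbers share only a number: the correlations of the deviations of same-numbered libraries were 0.03, -0.04 and 0.04. Chosen after seeing the data, leaving out the Hist genes gave 958 and 930, and leaving out chromosome 15 gave 919 and 926. None of the named genes reversed under any alternative run. Median-ratio scaling took the call from Prrx2, Tbx18, Tbx15, Efnb1, Mdm2, Ccne2, Pcolce, Pcdhb16, Tfcp2l1 and Hist1h1d, and the cause was not tested. TPM with 1 decimal gives no counting interval for genes near 0.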

Other observations

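Genes of chromosome 15 lay higher than the rest. Of its 438 genes tested with a position 12.3% were called higher and 4.11% lower, the median log2FC was 0.16 and 58.9% were above 0. On chromosome X the median was -0.37 and 22.5% of genes were above 0, and on chromosome 16 4.00% of genes were called higher and 2.77% lower. Copy number was not measured here, and its part in these values was not tested.

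Log2 fold change also moved with transcript length. From the shortest to the longest of 5 groups of genes of about equal size the median was -0.08, -0.10, -0.19, -0.24 and -0.29. The 301 Zfp genes with a length had a median length of 3238 bases and a median log2FC of -0.66. The part of length in the fall of the Zfp genes was not tested further.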
